A study of Mus musculus with 10 samples.

Results

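The genes described here are 9 members of the epidermal growth factor (EGF) receptor family and its ligands, chosen by name among the 55486 genes of a mouse count table. They comprise 6 ligands (Areg, Ereg, Hbegf, Tgfa, Btc and Nrg1) and 3 receptors (Egfr, Erbb2 and Erbb3). All 9 passed the filter on low counts in each comparison below. Levels came from 10 RNA sequencing libraries of normal mammary fibroblasts (NFs) and mammary tumor cells that had been cultured for 7 days in collagen gels containing basement membrane extract (BME). NFs were sorted from glands of mTmG mice at 8 weeks of age, as cells without (CD26-) or with (CD26+) the surface protein CD26, and equal numbers of both subsets went into a gel. mTmG is a reporter that turns cells from red to green on exposure to Cre recombinase. An adenovirus carrying Cre was given to the CD26+ NFs only, so exposure to the virus and the subset cannot be told apart. Tumor cells were lines 13-MCB-17 and 10-SJK-221, derived from end-stage tumors of mice in which Cre under the mammary Wap promoter deletes floxed Cdh1, a model of invasive lobular carcinoma. Gel 1 held NFs alone and gave 1 library of CD26- NFs and 1 of CD26+ NFs. Gels 2 and 3 held tumor cells alone, of 13-MCB-17 and 10-SJK-221 in that order, and gave 1 library each. Gels 4 and 5 held NFs together with 13-MCB-17 or 10-SJK-221 cells, and each gave a library of CD26- NFs, of CD26+ NFs and of tumor cells after sorting by color. NFs were pooled from several mice per sort, and each tumor line is a single culture.

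EGF family ligands are made as membrane-anchored precursors that proteases of the ADAM family release from the cell surface. Amphiregulin (Areg) and TGF-alpha (Tgfa) bind the EGF receptor (Egfr). Epiregulin (Ereg), heparin-binding EGF-like growth factor (Hbegf) and betacellulin (Btc) bind both Egfr and Erbb4, whereas neuregulin 1 (Nrg1) binds Erbb3 and Erbb4. Erbb2 has no known ligand and acts as the partner of the other receptors, and Erbb3 has little kinase activity of its own and signals through such partners. In the mammary gland the family is known for its part in duct growth, where epithelial amphiregulin acts on Egfr of the surrounding stroma, and ERBB2 is amplified in a subset of breast cancers. The comparison made here asks which cells held the ligand transcripts and which held the receptor transcripts, alone and in shared gels. Transcript levels do not show how much protein was made, shed or bound, and per the study's methods the medium of the tumor lines contained EGF. In its invasion assay, gels were kept in tumor cell and fibroblast medium combined, so EGF may have been present in all gels used here, those of lone NFs included.

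Library totals ran from 14142334 to 18408940 counts, and levels are given as CPM, the count scaled to a common library total. A count of 0 allows up to 3 counts, which is 0.163 to 0.212 CPM depending on the library. Sorted identities were checked with marker lists. The summed level of 10 epithelial markers was 0.807 and 1.12 CPM in lone NFs, with 7 of the 10 at 0 counts in either subset, and 4360 to 5750 CPM in tumor cells. In co-cultured NFs it was 121 to 329 CPM, with all 10 markers above 3 counts. The 8 fibroblast markers summed to between 2130 and 2330 CPM in lone tumor cells and between 72400 and 79300 CPM in lone NFs. In lone tumor cells 5 of the 8 were above 3 counts, with Fbln2 at 2260 and 2100 CPM and Pdgfra at 67.7 and 35.6 CPM, while Lum and Pdgfrb were at 0 counts. Fbln2 went against its label as a fibroblast marker, since co-cultured tumor cells held 168 to 263% of the NF level of the same gel. Dpp4, which encodes CD26, was at 0.281, 0.771 and 0.283 CPM in the CD26+ libraries of gels 1, 4 and 5 and at 0, 0 and 0.0575 CPM in the CD26- libraries. The labelled subset was thus seen in the transcripts at low counts only.

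Areg, Ereg and Btc lie in a row on chromosome 5 (GRCm38), with Epgn, the gene of a further ligand, at the left end. Ereg spans 91074622 to 91093646, Areg 91139599 to 91148432 and Btc 91357261 to 91402994. Epgn and Ereg are 39.4 kb apart and Ereg and Areg 46.0 kb apart, with 0 annotated genes between them, while 208.8 kb separate Areg from Btc. Ereg and Areg are read from the plus strand and Btc from the minus strand. Tgfa is on chromosome 6 (86195223 to 86275719), Erbb3 on chromosome 10 (128567523 to 128589652), and Egfr (16752203 to 16918158) and Erbb2 (98412470 to 98437716) on chromosome 11. Genes on the other strand overlap 4.66% of the exon bases of Nrg1, 3.42% of Ereg, 1.82% of Tgfa and 0.17% of Erbb2, and their reads cannot be told apart if counting ignored strand.

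Promoter sequences from RefSeq (GRCm38.p6) were found for 5 of the 9 members, Areg, Tgfa, Btc, Egfr and Erbb2. The 250 bases before the start of transcription are shown for Areg, the ligand with the highest fold change in co-cultured NFs, for Tgfa, a ligand held almost wholly by tumor cells, and for Egfr, the receptor held mainly by NFs. All 3 are written 5′ to 3′ on the plus strand, at chr5:91139349-91139598, chr6:86194972-86195221 and chr11:16751953-16752202. Capitals mark the motifs searched on both strands: the cAMP response element (CRE) TGACGTCA, the AP-1 site TGACTCA or TGAGTCA, the TATA box TATAAA or TTTATA, and the GC box GGGCGG or CCGCCC.
Areg: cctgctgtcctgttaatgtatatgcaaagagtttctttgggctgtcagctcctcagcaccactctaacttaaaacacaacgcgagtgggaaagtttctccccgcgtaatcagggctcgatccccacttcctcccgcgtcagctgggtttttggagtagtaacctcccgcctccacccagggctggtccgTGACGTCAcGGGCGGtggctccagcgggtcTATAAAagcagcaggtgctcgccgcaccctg
Tgfa: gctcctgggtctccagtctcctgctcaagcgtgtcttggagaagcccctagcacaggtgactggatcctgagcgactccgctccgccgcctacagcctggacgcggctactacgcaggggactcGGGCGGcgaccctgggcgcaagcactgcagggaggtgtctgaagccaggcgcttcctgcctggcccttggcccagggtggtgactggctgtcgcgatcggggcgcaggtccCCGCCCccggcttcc
Egfr: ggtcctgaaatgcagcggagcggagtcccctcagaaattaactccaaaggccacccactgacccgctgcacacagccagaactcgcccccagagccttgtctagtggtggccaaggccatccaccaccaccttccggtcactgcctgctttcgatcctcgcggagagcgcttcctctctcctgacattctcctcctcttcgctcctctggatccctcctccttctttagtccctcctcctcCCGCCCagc
Areg held a CRE that begins 61 bases before the start, a GC box at 52 bases and a TATA box at 31 bases. Among 32851 promoter windows of this length in the same table, 1.55% held the CRE, 12.4% the TATA box, 32.7% the GC box and 4.46% the AP-1 site. Tgfa held 2 GC boxes, at 126 and 15 bases, and Egfr held 1 at 9 bases. None of the 4 motifs was matched in the windows of Btc or Erbb2, and none of the 5 windows held the AP-1 letters. The CRE and the GC box of Areg do not overlap. These matches describe letters in a window, and no binding was measured in these samples.

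In lone cultures the ligand transcripts fell on opposite sides. Areg was at 1.3 and 1.75 CPM in lone CD26- and CD26+ NFs and at 383 and 331 CPM in lone 13-MCB-17 and 10-SJK-221 cells. In gels 4 and 5 CD26- NFs stood at 39.5 and 37.3 CPM of Areg, CD26+ NFs at 69.9 and 117 CPM, and tumor cells at 186 and 276 CPM. Tumor cells were above NFs in every culture, and co-cultured NFs were above lone NFs without overlap. Ereg, the neighbor of Areg, had the reverse distribution. Lone NFs held 314 (CD26-) and 134 CPM (CD26+), and in gels 4 and 5 the CD26- subset held 634 and 624 CPM and the CD26+ subset 516 and 506 CPM. Tumor cells held 1.79 and 1.85 CPM alone and 0.509 and 1.37 CPM in co-culture, so that all 6 NF libraries lay far above all 4 tumor libraries. From the highest to the lowest library the ratio was 1250 for Ereg and 293 for Areg.

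Hbegf, on chromosome 18 and also known as the diphtheria toxin receptor, was at 24.7 and 27.7 CPM in lone CD26- and CD26+ NFs against 462 and 530 CPM in lone tumor cells. In gels 4 and 5 the NFs came close to the tumor cells, the CD26- subset at 271 and 357 CPM, the CD26+ subset at 184 and 262 CPM and the tumor cells at 410 and 529 CPM. All NF libraries remained below all tumor libraries. Nrg1, on chromosome 8 (31814551 to 32884797), was at 20.3 and 22.1 CPM in lone NFs and at 108 and 80.9 CPM in lone tumor cells. In gels 4 and 5 the CD26- subset held 45.9 and 27.3 CPM, the CD26+ subset 101 and 58.1 CPM, and tumor cells 54.4 and 47.7 CPM. The order of the cell types in co-culture was thus CD26+ NFs, tumor cells and CD26- NFs in both gels.

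Tgfa belonged to the tumor cells in every culture. Tumor cells held 98.2 and 181 CPM alone and 143 and 215 CPM with NFs, with 10-SJK-221 above 13-MCB-17 each time. Lone NFs held 0.373 (CD26-) and 3.37 CPM (CD26+), and co-cultured NFs 2.73 and 5.12 CPM (CD26-) and 4.11 and 6.79 CPM (CD26+). Btc reached no more than 15.4 CPM in any library. Lone NFs held 3.54 and 1.97 CPM and lone tumor cells 2.5 and 4.77 CPM, which overlap. In gels 4 and 5 the CD26- subset held 6.54 and 7.54 CPM, the CD26+ subset 13 and 15.4 CPM, and tumor cells 0.679 and 3.19 CPM, and here every NF library was above every tumor library.

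Among the receptors, Egfr was chiefly a transcript of the NFs. Lone NFs held 663 (CD26-) and 537 CPM (CD26+), and in gels 4 and 5 the CD26- subset held 497 and 494 CPM and the CD26+ subset 643 and 652 CPM. Tumor cells held 33.8 and 24.4 CPM alone and 35.5 and 29.2 CPM in co-culture. Neither cell type changed its rank with culture. Erbb3 was the counterpart. Tumor cells held 86.4 and 82.1 CPM alone and 39.9 and 47.6 CPM in co-culture, whereas lone CD26- NFs held 3 counts (0.186 CPM) and lone CD26+ NFs 0 counts. Co-cultured NFs held 0.909 and 1.27 CPM (CD26-) and 2.12 and 2.69 CPM (CD26+). Erbb2 differed least. Its levels were 42.3 and 37.7 CPM in lone NFs, 29.6 to 41.9 CPM in co-cultured NFs, and 61.3 to 70.7 CPM in the 4 tumor libraries, which all lay above the NFs.

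**Figure D1:**
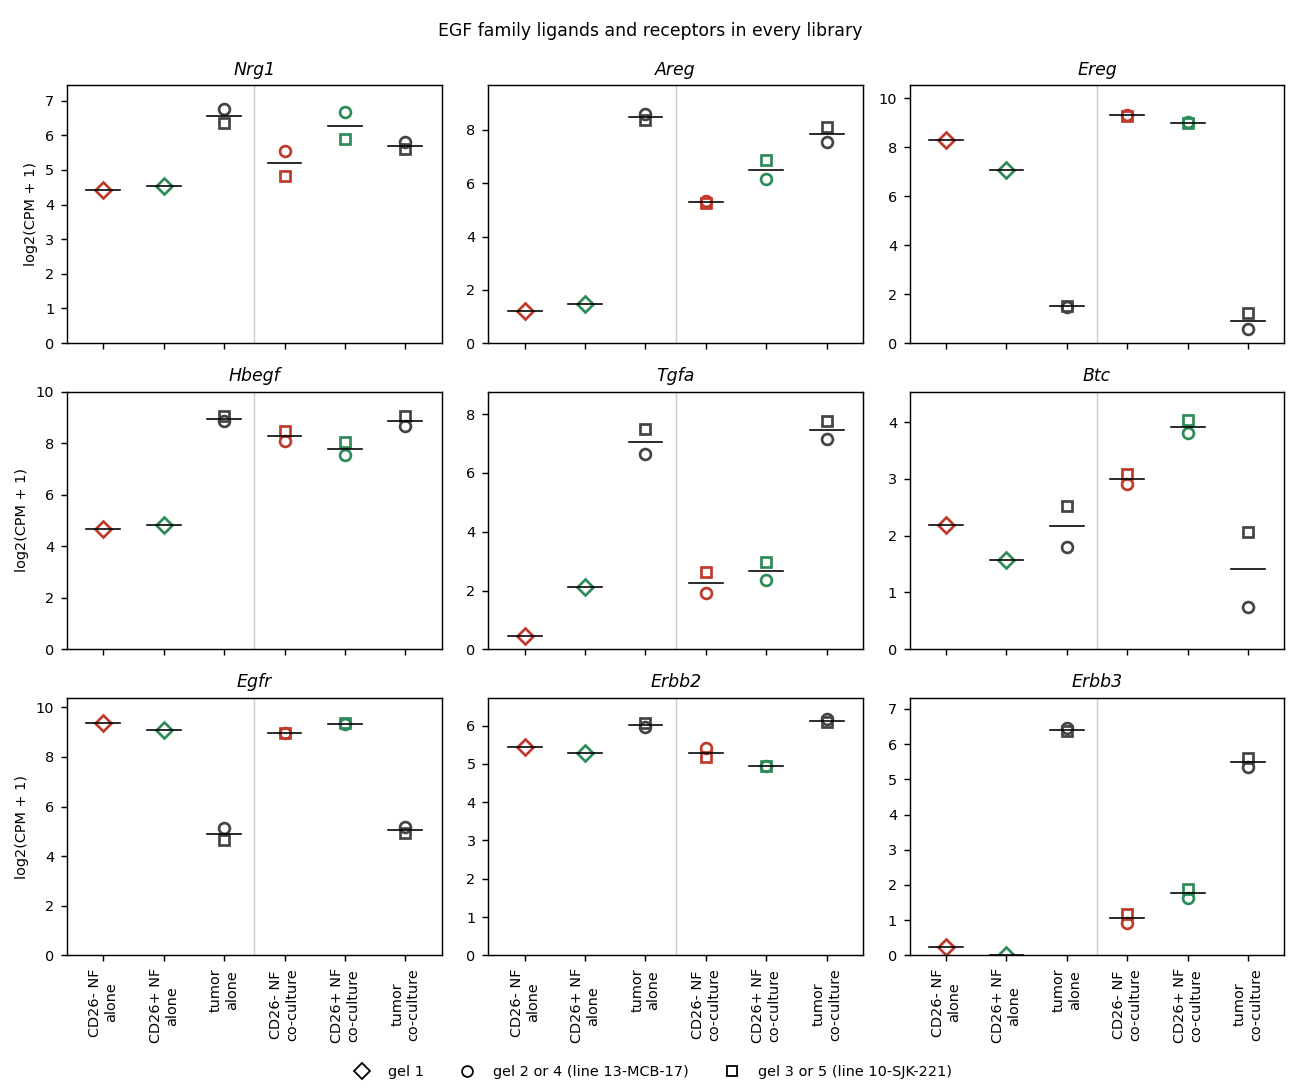
Level of each of the 9 members in every library, as log2(CPM + 1) on the vertical axis, with the 6 groups on the horizontal axis. Each symbol is 1 library and its shape the gel, and horizontal lines are means of the log values. Egfr and Ereg are high in NFs, Tgfa and Erbb3 in tumor cells, and Areg and Hbegf rise in NFs from lone culture to co-culture.

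Per kilobase of exon, levels can be set beside each other between genes. In lone NFs, Ereg made up 89.4% (CD26-) and 75.9% (CD26+) of the summed per-kilobase level of the 6 ligands. In lone tumor cells Areg made up 72.1 and 64.9% and Hbegf 21.9 and 26.2%. Hbegf made up 6 and 13.4% in lone NFs, and Nrg1 2.31 and 5.01% there against 2.38 and 1.87% in lone tumor cells. The leading ligand thus differed between the lone cultures, while Hbegf and Nrg1 had a share in both. Their levels were higher in tumor cells. Hbegf was at 5.1 and 5.74 CPM per kilobase in lone NFs against 95.6 and 110 in lone tumor cells. Nrg1 was at 1.96 and 2.14 against 10.4 and 7.82. In co-cultured CD26- NFs the share of Ereg was 61.8 and 58%, of Hbegf 22.5 and 28.3% and of Areg 13.1 and 11.8% in gels 4 and 5. In co-cultured CD26+ NFs, Ereg held 53.5 and 43.3%, Areg 24.6 and 34% and Hbegf 16.3 and 19.1%. Co-cultured tumor cells kept Areg as the leading ligand, at 57.7 and 60.5%. The summed ligand level was 85 and 42.6 CPM per kilobase in lone CD26- and CD26+ NFs and 234 to 283 in the 4 co-cultured NF libraries. Tumor cells held 437 and 419 CPM per kilobase alone and 266 and 375 in co-culture, and in each shared gel the tumor library was above both NF libraries. For receptors, Egfr made up 84.3 to 90.4% of the per-kilobase sum in all 6 NF libraries. Tumor cells divided it among Erbb2 (40.4 to 58.2%), Erbb3 (28.4 to 49.4%) and Egfr (7.58 to 13.4%). These lengths are the union of all annotated exons, so a gene of many isoforms such as Nrg1 is set lower than its main transcript would be.

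**Figure D2:**
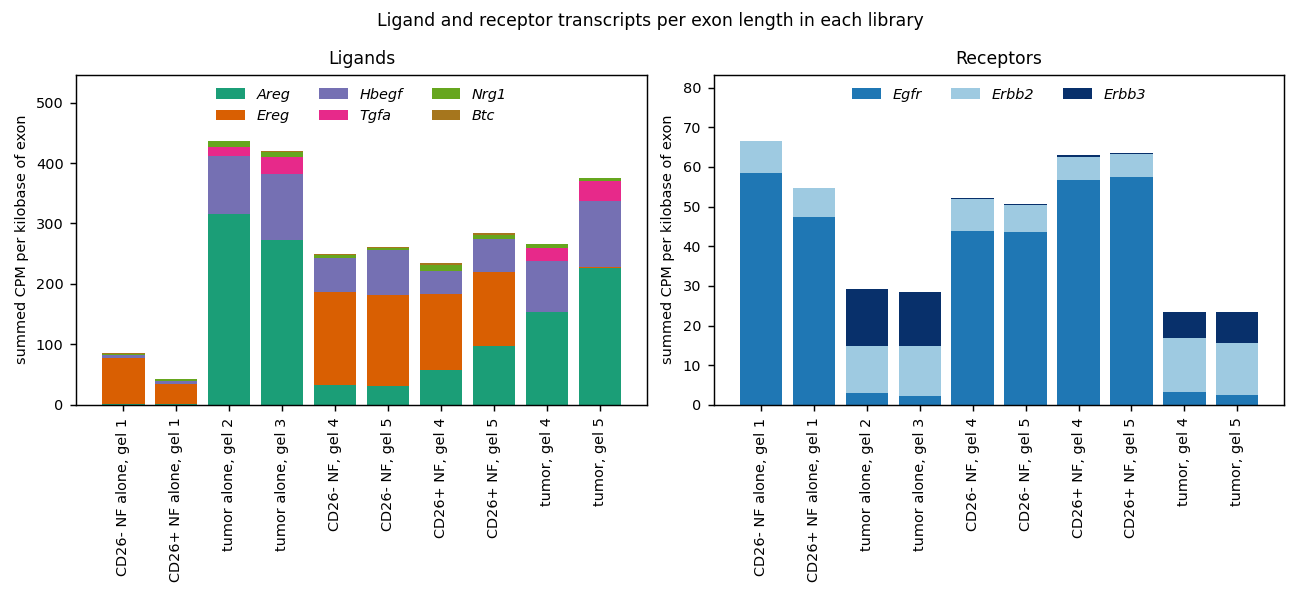
Ligand transcripts (left) and receptor transcripts (right) per exon length, as stacked bars of CPM per kilobase, with 1 bar for each of the 10 libraries. Ereg fills most of the bar in lone NFs, Areg and Hbegf add to it in co-cultured NFs, and Egfr fills 84.3 to 90.4% of the receptor bar in NFs.

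Tumor cells were first compared with NFs, each grown alone (edgeR quasi-likelihood test, Benjamini-Hochberg adjusted over 17048 genes, all 10 libraries in 6 groups). Of the 9 members 8 passed an adjusted p of 0.05, 6 higher and 2 lower in tumor cells, where 55.5% of all genes tested passed. The median log2 fold change of the members was 2.03, against -0.02 over all genes. Areg was higher by 7.75 on the log2 scale (SE 0.396, adjusted p = 1.53e-06), Tgfa by 6.80 (SE 0.536), Hbegf by 4.11 (SE 0.277), Nrg1 by 2.03 (SE 0.317) and Erbb2 by 0.54 (SE 0.144, adjusted p = 0.0131). Ereg was lower, with a log2 fold change of -6.94 (SE 0.327), as was Egfr, with -4.48 (SE 0.237, adjusted p = 1.82e-06). Erbb3 also passed, but its fitted fold change depends on the prior count because lone NFs held 3 counts in all. From pooled counts the ratio was 854, with a 95% exact conditional interval of 292 to 4140 that covers counting error only. Btc did not pass, with a log2 fold change of 0.32 and a 95% interval of -1.03 to 1.66. Lone NFs had 1 library per subset from the same gel, and without that of CD26+ NFs Erbb2 no longer passed (log2 fold change 0.35, adjusted p = 0.138), as also with no filter beyond 1 count (0.50, adjusted p = 0.0567). The Tgfa value was 5.29 without the lone CD26- library and 8.28 without the lone CD26+ library, which held 6 and 48 counts. That of Ereg ran from -7.65 to -6.27 over 15 alternatives.

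Within shared gels 8 of the 9 members again differed between tumor cells and NFs, 5 higher and 3 lower in tumor cells, with 51.8% of all genes passing. Ereg was lower by a log2 fold change of -9.43 (SE 0.358), Egfr by -4.33 (SE 0.225) and Btc by -2.57 (SE 0.551, adjusted p = 0.00483). Over 16 alternatives the value ran from -10.28 to -8.9 for Ereg and from -4.05 to -1.86 for Btc. Co-cultured tumor cells of gels 4 and 5 held 9 and 24 counts of Ereg and 12 and 56 of Btc. Tgfa was higher by 5.06 (SE 0.345), Erbb3 by 4.55 (SE 0.190), Areg by 1.74 (SE 0.233, adjusted p = 0.000371) and Erbb2 by 0.83 (SE 0.121). The median of the 10 epithelial markers was 4.99 here, near the values of Tgfa and Erbb3. The part of tumor-cell transcripts in the NF levels was not tested. Hbegf differed by 0.62 (SE 0.206, adjusted p = 0.0334). Nrg1 did not pass, with a log2 fold change of -0.27 and a 95% interval of -0.88 to 0.34. The Hbegf call was lost with RLE scaling (adjusted p = 0.0515) and without the co-cultured tumor library of 10-SJK-221 (0.214) or the CD26- or CD26+ library of gel 4 (0.1 and 0.086), and its adjusted p ran from 0.00415 to 0.214 over 16 alternatives. With the gel as a block the 8 calls were the same.

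The difference between tumor cells and NFs was then compared between the cultures, as a contrast of both contrasts. It shifted toward the NFs for 6 of the 9 members and toward the tumor cells for 0, where 20.2% of all genes shifted in either direction (8.15% toward tumor cells and 12% toward NFs). The median shift was -2.49 for the members and -0.06 for all genes. In the same contrast all 10 epithelial markers shifted toward the NFs (median -9.81). Of 8 fibroblast markers 7 shifted toward the tumor cells (median 4.99). The part of transcripts from the other cell type in the shifts of the members was not tested. The shift was -6.01 for Areg (SE 0.446, adjusted p = 0.000165), -3.49 for Hbegf (SE 0.340, adjusted p = 0.000457), -2.89 for Btc (SE 0.792, adjusted p = 0.036), -2.49 for Ereg (SE 0.416) and -2.30 for Nrg1 (SE 0.415). Erbb3 shifted as well, by -6.41, a size that again depends on the 3 counts of lone NFs. Egfr moved by 0.16 (95% interval -0.47 to 0.78), Erbb2 by 0.29 (-0.14 to 0.73) and Tgfa by -1.74 (-3.21 to -0.27, adjusted p = 0.0925), and these did not pass. The Tgfa shift passed in 4 of 15 alternatives, among them DESeq2 (adjusted p = 0.0161) and the fit without lone CD26+ NFs (-3.22, adjusted p = 0.0438), but without lone CD26- NFs, with their 6 counts, it was -0.22 (adjusted p = 0.892). The contrasts share libraries, so the shift is not independent of the values above. The Btc call was lost without either lone CD26+ NFs, 10-SJK-221 tumor cells alone, or any 1 of the 4 co-cultured NF libraries (adjusted p 0.0713 to 0.114). The Ereg shift ran from -3.34 to -1.78 over 15 alternatives.

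**Figure D3:**
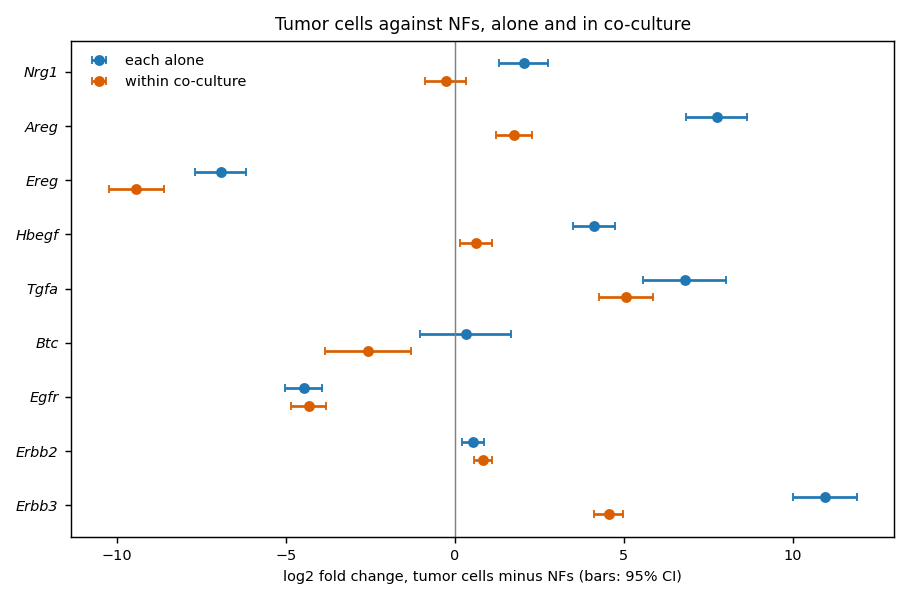
Log2 fold change of tumor cells over NFs for each member on the horizontal axis, in lone cultures (blue) and within shared gels (orange), with 95% intervals as bars. Egfr and Erbb2 keep their place, and Areg, Hbegf, Nrg1, Btc, Ereg and Erbb3 lie further to the left in shared gels, where the lone-culture position of Erbb3 depends on the prior count.

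Sums over a shared gel show the same distribution without a model. If the 3 sorted cell types are weighted equally, NFs of gels 4 and 5 held 97 and 97.5% of the summed CPM of Egfr, 100 and 99.9% of Ereg and 96.6 and 87.8% of Btc. Tumor cells held 95.4 and 94.7% of Tgfa and 92.9 and 92.3% of Erbb3. Areg (63 and 64.1% in tumor cells), Hbegf (47.4 and 46.1%), Erbb2 (49.6 and 50.9%) and Nrg1 (27 and 35.8%) were divided. These are shares of relative levels, because neither the number of cells of a type in a gel nor the RNA per cell was measured, and fewer cells of a type and less RNA per cell cannot be told apart. NF shares add both subsets, so they are not ratios of levels. In gels 4 and 5 the tumor level was 1.8 and 1.71 times the mean NF level for Hbegf and 1.97 and 2.07 times for Erbb2. For Areg it was 3.4 and 3.57 times and for Nrg1 0.741 and 1.12 times.

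To follow the NFs themselves, co-cultured NFs were compared with lone NFs over the 6 NF libraries, with subset as a term. Of the 9 members 7 were higher in co-culture and 0 lower, where 48.8% of 15013 genes passed (25.9% higher, 22.9% lower). The median log2 fold change was 1.63 for the members and 0.02 for all genes. Areg, 1.3 and 1.75 CPM before, was higher by 5.39 on the log2 scale (SE 0.326, adjusted p = 1.98e-06), which is 30.3- and 28.6-fold in CD26- NFs and 39.8- and 66.8-fold in CD26+ NFs of gels 4 and 5. Hbegf was higher by 3.38 (SE 0.262, adjusted p = 8.97e-06), or 6.64- to 14.5-fold by library. Btc was higher by 1.87 (SE 0.387), Ereg by 1.49 (SE 0.207) and Nrg1 by 1.37 (SE 0.303, adjusted p = 0.00468). Without the lone CD26- library the Btc value was 2.88 and without the lone CD26+ library 1.05. All 5 of these ligands were higher in each of the 4 co-cultured libraries than in the lone library of the same subset. Tgfa was higher by 1.63 (SE 0.580, adjusted p = 0.0407), and Erbb3 was higher in pooled counts with a ratio of 17.2 (95% exact conditional interval 5.73 to 84.6, counting error only). The receptors Egfr and Erbb2 did not pass, at -0.04 (95% interval -0.41 to 0.34) and -0.19 (-0.49 to 0.10). Each value rests on 2 gels against 1, so co-culture and whatever else set gel 1 apart cannot be separated, and the Tgfa call was lost without lone CD26- NFs (0.73, adjusted p = 0.268) and without the CD26- library of gel 4 or 5 or the CD26+ library of gel 5 (adjusted p 0.0612 to 0.101).

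Epithelial transcripts moved with co-culture in the same NF libraries, and the members were therefore set beside them gel by gel. The 10 epithelial markers stood in co-cultured NFs at a median of 1.94 to 5.03% of their level in tumor cells of the same gel, and the highest of them, Krt19, at 9.19 to 17.7%. Areg stood at 21.2 and 13.5% in CD26- NFs and at 37.5 and 42.5% in CD26+ NFs of gels 4 and 5, above all 10 markers in each library. In the CD26- NFs of gel 5 the Areg level was 37.3 CPM, and the tumor level at the ratio of Krt19 would be 25.4 CPM. In the other libraries the Areg level was 39.5, 69.9 and 117 CPM where that ratio would give 18.2, 23.7 and 48.9 CPM. Hbegf stood at 44.9 to 67.4% and Nrg1 at 57.3 to 186%, also above all 10 markers. Ereg and Btc were higher in NFs than in the tumor cells of the gel. Erbb3 in NFs stood at 2.28 to 5.65% of the tumor level and Tgfa at 1.90 to 3.16%, inside the range of the markers in all 4 libraries. Markers of other cell types moved as well. Of 4 smooth muscle and pericyte markers, 2 were higher in co-cultured NFs and 0 lower. Among them Cspg4 was at 59.7 to 175 CPM against 2.48 and 5.97 CPM alone, whereas Rgs5 was at 1.88 to 6.22 CPM against 9.25 and 6.11 CPM and Myh11 at 2.24 to 3.11 CPM against 3.1 and 2.74 CPM. Of 3 endothelial markers tested, 2 were higher and 0 lower, with Pecam1 at 5.93 to 9.76 CPM against 0.31 and 1.26 CPM. Of 2 adipocyte markers tested, 1 was lower and 0 higher, and 4 of 8 fibroblast markers were lower and 1 higher. Of 3 immune markers tested, Cd68 was higher (3.48 and 6.53 CPM alone, 19.6 to 53.5 CPM in co-culture) and Lyz2 lower (6.02 and 4.07 CPM alone, 0.173 to 0.964 CPM in co-culture). Their part in the NF results was not tested. The part of tumor-cell transcripts in the Areg, Hbegf, Nrg1, Erbb3 and Tgfa values of co-cultured NFs was not tested.

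**Figure D4:**
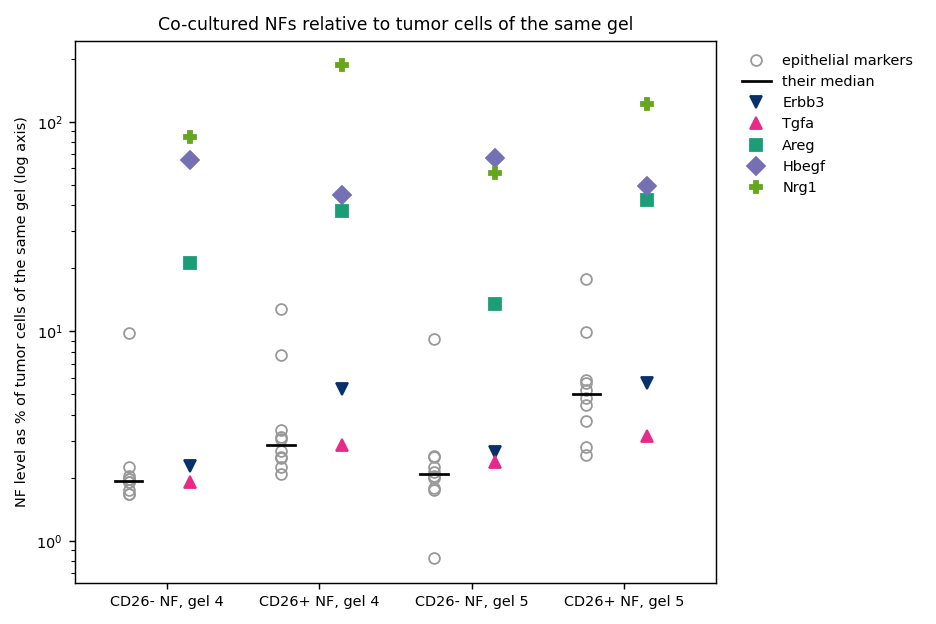
Level in each of the 4 co-cultured NF libraries as a percent of the tumor cells of the same gel, on a log axis. Open circles are the 10 epithelial markers, black lines their medians, and filled symbols Erbb3, Tgfa, Areg, Hbegf and Nrg1. Areg, Hbegf and Nrg1 lie above all markers, and Erbb3 and Tgfa lie among them.

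CD26+ NFs were next compared with CD26- NFs over gels 1, 4 and 5. Areg was higher in CD26+ NFs, by 1.01 on the log2 scale (SE 0.232, adjusted p = 0.033), with a ratio of 1.35, 1.77 and 3.14 in the 3 gels. Ereg was lower, at -0.76 (SE 0.183, adjusted p = 0.038), and CD26- NFs held 2.35, 1.23 and 1.23 times the level of CD26+ NFs. These were 2 of the 9 members, where 7.53% of 15013 genes passed. The pair of neighboring ligands thus differed in opposite directions between the subsets. The summed epithelial markers differed in the same direction as Areg, at 181 to 329 CPM in the co-cultured CD26+ subset against 121 to 149 CPM in the CD26- subset, and their part in the Areg difference was not tested. Of 8 fibroblast markers 3 were lower and 0 higher in CD26+ NFs (median -0.62), and of 3 endothelial markers tested 1 was higher and 0 lower. Their part in the subset results was not tested either. Nrg1 was above the CD26- level in the CD26+ library of each gel and did not pass (0.65, 95% interval 0.05 to 1.26, adjusted p = 0.168). Erbb2 (-0.45, adjusted p = 0.0597), Hbegf (-0.45, 95% interval -0.91 to 0.02) and Egfr (0.00, -0.35 to 0.35) did not pass either. Erbb2 passed in DESeq2 (adjusted p = 0.0409), and Nrg1 passed without either library of gel 1 (0.045 and 0.0288). The Areg and Ereg calls were lost when any of the CD26- libraries of gels 4 and 5 or the CD26+ library of gel 5 was left out, with adjusted p from 0.0742 to 0.175, and that of Ereg also without either library of gel 1 (0.123 and 0.128).

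Whether the subsets differed in their response to co-culture was asked with an interaction term. In edgeR 0 of the 9 members passed, where 0.376% of 16231 genes did, and DESeq2 called 0 members. An unadjusted p under 0.05 was found for 5 of the members and for 1265 of the 16231 genes. Egfr moved in opposite directions, from 663 CPM down to 497 and 494 CPM for CD26- and from 537 CPM up to 643 and 652 CPM for CD26+, with an interaction of 0.66 (95% interval 0.02 to 1.30, adjusted p = 0.623). Cells of gels 4 and 5 shared their gel, and with the gel as a block 2 members passed, where 2.43% of genes did. Btc then had an interaction of 1.83 (adjusted p = 0.00848), and it was 1.85- and 2.13-fold higher in co-cultured CD26- NFs and 6.60- and 7.84-fold higher in CD26+ NFs. Tgfa had one of -2.69 (adjusted p = 0.0119), from 7.32- and 13.7-fold in CD26- NFs and 1.22- and 2.01-fold in CD26+ NFs. Each lone subset was 1 library, assumed to vary like the other groups, with 57 (CD26-) and 28 counts (CD26+) of Btc and 6 and 48 of Tgfa. The co-cultured Tgfa levels were also those inside the range of the epithelial markers. Over the 10 alternatives the adjusted p of the interaction ran from 0.00848 to 0.637 for Btc and from 0.0119 to 0.784 for Tgfa.

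Tumor cells were compared between co-culture and lone culture in the same way. With the line as a term, 4 of the 9 members differed between co-cultured and lone tumor cells, 3 lower and 1 higher, where 22.3% of 13197 genes passed, and the median was -0.67 for the members and 0.01 for all genes. Erbb3 had a log2 fold change of -0.98 (SE 0.117, adjusted p = 0.000912), a 2.17-fold lower level in 13-MCB-17 and a 1.73-fold lower one in 10-SJK-221. Nrg1, its ligand, had -0.90 (SE 0.107, adjusted p = 0.000877), with 1.98- and 1.70-fold lower levels. Areg had -0.67 (SE 0.177, adjusted p = 0.028), and its levels were 2.05-fold lower in 13-MCB-17 and 1.20-fold lower in 10-SJK-221. Tgfa was higher by 0.37 (SE 0.110, adjusted p = 0.0441), 1.46- and 1.19-fold by line, but it passed in only 2 of 11 alternatives and not with RLE scaling (adjusted p = 0.0599), 1 CPM in 2 libraries (0.0511) or DESeq2 (0.177). Egfr (0.14, 95% interval -0.16 to 0.44), Erbb2 (0.09, -0.14 to 0.32) and Hbegf (-0.11, -0.38 to 0.15) did not pass. Btc (-1.09, adjusted p = 0.0766) and Ereg (-1.05, adjusted p = 0.146) did not pass either, but passed without either 10-SJK-221 library, at -1.91 and -1.84. Fibroblast markers moved in the same libraries, 6 of 7 tested being higher in co-cultured tumor cells (median 3.73, Col1a1 from 3.1 and 1.78 to 89.1 and 28.1 CPM), and 4 of 10 epithelial markers were lower. The immune marker Cd68 was lower as well, from 299 to 80.5 CPM in 13-MCB-17 and from 93.1 to 34.8 CPM in 10-SJK-221. Of 3 endothelial markers tested, 1 was lower and 0 higher. Kdr was at 1.2 and 0.954 CPM alone and 0 and 0.114 CPM in co-culture. By level Pecam1 went the other way, from 0.489 to 3.17 CPM in 13-MCB-17 and from 1.34 to 1.54 CPM in 10-SJK-221. Cdh5 went from 1.58 to 0.792 CPM and from 0.254 to 0.456 CPM. Their part in these results was not tested. The fit left 1 residual degree of freedom. With the line left out of the fit 0 members passed, and in a fit of all 10 libraries none of the 4 calls was kept without either 13-MCB-17 library and only that of Erbb3 without either 10-SJK-221 library.

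Between the lines, 3 of the 9 members differed, where 14.5% of genes did. Tgfa was higher in 10-SJK-221 than in 13-MCB-17 by 0.66 (SE 0.110, adjusted p = 0.00595), at 181 against 98.2 CPM alone and 215 against 143 CPM in co-culture. Btc was higher by 1.37 (SE 0.385, adjusted p = 0.0497) and Nrg1 lower, at -0.38 (SE 0.106, adjusted p = 0.0496). Calls of Btc and Nrg1 were lost with RLE scaling, with a filter of 1 CPM in 2 libraries and in DESeq2. That of Tgfa was lost in the fit of all 10 libraries (adjusted p = 0.133) and without any 1 of the 4 tumor libraries (0.352 to 0.764), and line and gel cannot be told apart in these libraries.

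The other genes of the family were scarce. Egf was at 0.489 to 2.12 CPM and Nrg4 at 0.0621 to 0.578 CPM over the 10 libraries. Erbb4, the remaining receptor, held counts in 1 library only (0.0707 CPM). Epgn, the neighbor of Ereg, was at 0.0621 and 0 CPM in lone NFs and at 0.288 to 1.48 CPM in co-cultured NFs, a pooled-count ratio of 23.4 with an interval of 4.01 to 942 for counting error. Nrg2 was at 1.63 to 3.56 CPM in tumor cells and at 0 to 0.632 CPM in NFs.

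Genes that release the ligands also differed between the cell types. Of 8 such genes, 4 were higher and 2 lower in tumor cells than in NFs grown alone, and 4 and 2 within shared gels, against 27.1 and 28.4% and 24.2 and 27.7% of all genes. The iRhom gene Rhbdf2, whose product carries Adam17 to the cell surface, was at 1.61 and 5.9 CPM in lone NFs, 60.7 to 87.7 CPM in co-cultured NFs and 85.5 to 105 CPM in tumor cells. In NFs it was higher in co-culture by 4.34 on the log2 scale (SE 0.427, adjusted p = 3.7e-05), and it passed in the interaction of subset and co-culture, at -2.33 (adjusted p = 0.0154). There 0.376% of genes passed. That value rests on 1 lone library per subset, with 26 counts of Rhbdf2 in CD26- NFs and 84 in CD26+ NFs. Adam17, the main sheddase of Areg, Tgfa and Hbegf, was at 112 to 156 CPM in all 10 libraries. Adam12 crossed over, from 806 and 514 CPM in lone NFs to 44.8 to 119 CPM in co-cultured NFs, and from 52.1 and 59.7 CPM in lone to 182 and 255 CPM in co-cultured tumor cells. Its shift was 5.10 (SE 0.278, adjusted p = 7e-05). Adam8 was lower in co-cultured than in lone tumor cells, at -1.51 (SE 0.131), and higher in co-cultured than in lone NFs, at 0.95 (SE 0.203). Its NF level was 11.1 and 15.3 CPM alone and 15.6 to 35 CPM in co-culture, against 88.8 and 73.6 CPM in co-cultured tumor cells. The part of tumor-cell transcripts in the co-cultured NF values of these genes was not tested.

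Downstream of the receptors, 14 genes that the ERK pathway is known to induce were followed. In co-cultured NFs 6 were higher and 2 lower than in lone NFs, where 25.9% of all genes were higher and 22.9% lower, with a median of 0.37 against 0.02 for all genes. Dusp5, a phosphatase of ERK, was at 20.2 and 17.9 CPM in lone NFs and 77.5 to 99.6 CPM in co-cultured NFs (2.21, SE 0.166). The ETS factor gene Etv4 was at 11.4 and 17.1 CPM and 50.4 to 68.1 CPM (2.15, SE 0.211), while Spry2, a feedback inhibitor, was lower in co-culture (-1.42, SE 0.188). Directions within this list were therefore mixed. In tumor cells 2 were higher and 3 lower in co-culture, where 10.8% of all genes were higher and 11.5% lower, with Spry1 (1.59), Fosl1 (-0.97) and Dusp4 (-0.75) the furthest from 0. Among 10 genes that restrain the receptors, 2 were higher and 5 lower in co-cultured NFs, against the same 25.9 and 22.9% of all genes. Lrig1, which promotes receptor breakdown, was higher by 1.16 (SE 0.178), Lrig3 lower (-2.25, SE 0.149), and Cblb, a ubiquitin ligase, lower (-1.33, SE 0.174). Lrig3 held 0 counts in all 4 tumor libraries. Of 8 adaptor genes 1 was higher and 2 were lower in co-cultured NFs, Sos1 (0.49), Gab1 (-1.41) and Pik3r1 (-1.47), where 48.8% of all genes passed in either direction.

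Patterns like those of the members were sought among 13490 genes with a mean of at least 1 CPM, by Pearson's r of log2(CPM + 1) over the 10 libraries. The highest r was with Galm for Egfr (0.998), with Map3k9 for Erbb3 (0.999), with Itga1 for Ereg (0.996), with Jup for Tgfa (0.991) and with Scaper for Erbb2 (0.979). For Areg the first 3 were Arhgap22 (0.992), Abca7 (0.989) and Dusp5 (0.989), and for Hbegf they were Sun1 (0.993), Tnfrsf23 (0.988) and Etv4 (0.986). Nrg1 (Stam, 0.964) and Btc (Ell2, 0.956) had the least close partners. Among the members themselves, Areg and Hbegf had an r of 0.95, Erbb3 and Tgfa 0.97, Egfr and Ereg 0.98, and Areg and its neighbor Ereg -0.62. These values describe libraries that fall into tumor cells and NFs and share their gels and sorts, so r mainly orders genes by how they part the cell types.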

How the data were processed

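RNA of sorted CD26- NFs, CD26+ NFs and tumor cells had been made into stranded mRNA libraries, per the labels. The authors deposited 1 table of unnormalized read counts, with a column for each of the 10 libraries. The submitters' processing notes name HISAT2 2.2.1 and GRCm38, while how reads were assigned to genes, and whether by strand, was not given in the sources used here. GENCODE M21 (GRCm38) matched 99.53% of the 55486 gene IDs and supplied strand, exon lengths and overlaps. Positions are those of the table. One row that named no gene, with 0 counts, was left out. An item of the tumor genotype is not reported here.

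Groups were compared by the quasi-likelihood test of edgeR 4.0.16 (R 4.3.3) after TMM scaling and the filter filterByExpr. Adjustment was Benjamini-Hochberg over all genes tested and a threshold of 0.05. SE and intervals are those of the log2 fold change. The 6-group fit left 4 residual degrees of freedom, the NF fits 3 and 2, and the tumor fit 1. The script was tested on simulated counts first. Labels do not say that the gels came from separate animals, and NFs were pooled, so p-values measure the spread between these libraries. Some of it may be technical. In the 6-group fit every group of 2 libraries had 1 per tumor line, so the spread includes line and gel differences. Lone NFs, with 1 library per subset, added nothing to it in that fit. Intervals and floors of 3 counts cover counting error only, since reads are not independent molecules.

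Cells of gels 4 and 5 shared a gel per the labels, and tumor libraries shared a line. Deviations of gel 4 from gel 5 had correlations over 13490 genes of 0.26 (CD26- and CD26+ NFs), 0.19 (CD26- NFs and tumor cells) and 0.1 (CD26+ NFs and tumor cells), and of the lines 0.71 between cultures. The members and gene lists were chosen with earlier results of these data known. The rule took the 9 members, up to 3 called genes per list and comparison with the largest change, and the 3 genes most like each member, and further listed genes were named after their values were seen. Alternatives were RLE scaling, library totals, no filter beyond 1 count, 1 CPM in 2 libraries, DESeq2 1.42.0, an added absolute log2 fold change of 2, blocks, and leaving out each library.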

Additional observations from a re-analysis of the deposited data

Results flagged for a closer look

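For 6 members the difference between tumor cells and NFs changed from lone cultures to shared gels, by a test of that change in edgeR with an adjusted p under 0.05. The changes on the log2 scale were -6.41 for Erbb3, -6.01 for Areg, -3.49 for Hbegf, -2.89 for Btc, -2.49 for Ereg and -2.30 for Nrg1, each toward the NFs. All 10 epithelial markers changed in the same direction (median -9.81) and 7 of 8 fibroblast markers in the other (median 4.99). Their part in these changes was not tested. The Erbb3 value rests on 3 counts in lone NFs and ran from -8.81 to -3.99 over 15 alternatives, against -6.30 to -5.76 for Areg, and the Erbb3 level of co-cultured NFs lay inside the range of the epithelial markers.

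Egfr moved in opposite directions in the NF subsets with co-culture. On the log2(CPM + 1) scale it changed by -0.41 and -0.42 in CD26- NFs of gels 4 and 5, and by 0.26 and 0.28 in CD26+ NFs, each against the 1 lone library of the subset. The interaction in edgeR, 0.66, did not pass (adjusted p = 0.623), nor did it in any of 10 alternatives (0.58 to 0.70, adjusted p from 0.328).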

How the results depend on the processing

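Over all members and alternatives, 873 results kept their side of the threshold, 84 lost a call, 15 gained one and 0 reversed. With the absolute log2 fold change above 2 added, 5 members passed between tumor cells and NFs in shared gels, 3 between co-cultured and lone NFs, and 0 between the subsets, between co-cultured and lone tumor cells, and between the lines. Library totals left 1 member between the subsets (Areg). RLE scaling, 1 CPM in 2 libraries and DESeq2 each left 1 between the lines (Tgfa), and the fit of all 10 libraries left 1 there (Btc) and 2 between co-cultured and lone tumor cells. With the gel as a replicate block the interaction called 2 members and no other call changed, while without the line as a block 0 members passed between co-cultured and lone tumor cells. Leaving out 1 library gave 7 to 8 members between tumor cells and NFs alone and in shared gels, 5 to 7 for the shift, 6 to 7 for co-cultured against lone NFs, 0 to 2 between the subsets, 0 in the interaction, 0 to 3 for tumor cells and 0 to 1 between the lines. Where this left an arm with 1 library, that library is assumed to vary like the other groups. Erbb3 in lone NFs, at 3 counts in all, and Tgfa in lone CD26- NFs, at 6 counts, are limited by depth.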
